A study of Mus musculus with 16 samples.

Results

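Immediate early genes are the genes that a cell transcribes first after a stimulus such as synaptic activity, a growth factor or stress, because the proteins that switch them on are already present when the signal arrives. Calcium and kinase signals phosphorylate CREB and the partners of serum response factor at these promoters, the transcripts appear within minutes and decay quickly, and many of the proteins are themselves transcription factors. In the spinal cord, Fos is the classical marker of recently active neurons.

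The 10 genes described here are Fos, Fosb and Junb, subunits of the dimeric transcription factor AP-1; Egr1, Nr4a1 and Npas4, transcription factors of the zinc finger, nuclear receptor and PAS domain families; and Arc, Ier2, Dusp1 and Btg2, products with other functions. They were taken by name from the array files, as every spot that is not a control and carries 1 of these gene names, which gave 14 probes among 41174 and 10 gene names among 27962. No measured value decided which probes were taken, though the genes were chosen with earlier results of these data known.

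Lumbar spinal cord was measured in 4 groups of 4 mice: wild-type (NonTg) mice of 40 days, SOD1G93A mice of 40 days, wild-type mice of 80 days and SOD1G93A mice of 80 days. All were on the B6SJL background, and per the study's methods all were male. SOD1G93A mice carry a mutant human SOD1 transgene, which is known to be active throughout the body and not in motor neurons alone, and both ages precede the classical signs of disease. Each array carried 1 Cy3-labeled cord sample and a Cy5-labeled reference, a pool of neonatal heart, kidney and liver from mice of both genotypes. The level given below for each gene is the log2 ratio of cord to that reference, so that a value is comparable between arrays for 1 probe and not between genes.

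The promoters of 3 members are shown because Nr4a1 and Junb carry the differences described below and Fos is the gene with which the others are compared across arrays. Each line is the 250 bases before the transcription start in RefSeq (build GRCm38.p6), 5′ to 3′ on the strand of the gene, for Fos from chr12:85473640-85473889 (+), for Junb from chr8:84978749-84978998 (-) and for Nr4a1 from chr15:101266596-101266845 (+). Capitals mark TGACG, the core of the cAMP response element that CREB binds, on either strand (CGTCA is the same core read on the other strand).
Fos: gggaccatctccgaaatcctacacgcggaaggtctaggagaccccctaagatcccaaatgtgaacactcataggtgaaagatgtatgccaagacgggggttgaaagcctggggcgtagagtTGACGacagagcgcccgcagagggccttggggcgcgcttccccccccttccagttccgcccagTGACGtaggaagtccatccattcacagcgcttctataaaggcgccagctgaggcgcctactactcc
Junb: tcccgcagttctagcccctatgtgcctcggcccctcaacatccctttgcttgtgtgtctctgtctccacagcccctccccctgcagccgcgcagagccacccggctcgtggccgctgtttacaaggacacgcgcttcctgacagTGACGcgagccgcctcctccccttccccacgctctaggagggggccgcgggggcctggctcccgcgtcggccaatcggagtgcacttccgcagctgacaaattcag
Nr4a1: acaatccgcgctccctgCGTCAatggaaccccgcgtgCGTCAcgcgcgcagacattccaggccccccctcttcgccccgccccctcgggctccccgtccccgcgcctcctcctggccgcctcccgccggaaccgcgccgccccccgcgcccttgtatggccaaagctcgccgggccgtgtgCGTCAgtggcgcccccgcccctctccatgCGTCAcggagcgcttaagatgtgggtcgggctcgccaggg

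The core TGACG occurred in all 7 member promoters that the RefSeq table lists (Fos, Fosb, Junb, Nr4a1, Dusp1, Btg2 and Npas4), against 17.8% of the 32851 promoter windows of the same length. Nr4a1 held 4 such cores and Fos held 2. The full cAMP response element TGACGTCA, which contains the core on both strands, occurred in Btg2 and Dusp1 and in 1.55% of all windows. The EGR site GCGNGGGCG occurred in Btg2, Fosb and Nr4a1 and in 4.7% of all windows. The TATA box TATAAA occurred in Fos and in 12.4% of all windows. The AP-1 site TGANTCA (6.75% of all windows) and the CArG box of serum response factor (1.47%) were found in 0 of these 7 windows. These are matches of letters on both strands and not measured binding. Bases farther upstream than these windows were not searched, and neither were the promoters of Arc, Egr1 and Ier2. Absence of a site from a window therefore does not show that the gene lacks it.

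On the arrays, 8 of the 10 genes were measured well enough to be tested, through 10 of their 14 probes. A probe entered the tests if some group had it well above background in the cord channel in 3 or more mice. Fosb passed that mark on 3 of 16 arrays in all, with cord signals of 43 to 60.5 over local backgrounds of 34 to 39.5, and Npas4 passed it on 1 of 16 with 43 to 49.5, so the levels of both were not well above background in every group. The other 8 genes were well above background on all 16 arrays through the brightest probe of each, which stands for the gene below. One further probe of Ier2 and 1 of Btg2 were too dim to test. No spot of a member was saturated.

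Of all probes, 46.1% to 55.3% were well above background in the cord channel on each array. Replicate 1 of every group lay on 1 slide, replicate 2 on the next and so on, and each group kept 1 position on its slide, so that position and group cannot be told apart. Marker genes of the cord (5 of 5 neuronal, 6 of 6 astrocyte and 5 of 5 oligodendrocyte genes on the array) were well above background on all 16 arrays. Other lists were less complete, with 2 of 4 motor neuron, 1 of 2 sensory neuron, 4 of 5 meningeal and 3 of 5 skeletal muscle genes. In whole tissue, fewer cells of a type and less RNA per cell cannot be told apart.

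Fos, the subunit of AP-1 best known as an activity marker, had close mean levels in all 4 groups. They were -0.05 in wild-type and -0.03 in SOD1G93A mice of 40 days, and -0.06 and -0.07 at 80 days. Fos was dim, with cord signals of 65.45 to 100.25 over local backgrounds of 34.85 to 40.5. The offset used in processing compresses differences of dim probes. Its probe (chr12:83478431-83478490, build mm7) was spotted 10 times on each array. In 40-day wild-type mice its log2 ratios were -0.04, -0.23, 0.10 and -0.04, and in 40-day SOD1G93A mice 0.03, -0.08, 0.07 and -0.14. At 80 days they were -0.18, 0.06, 0.24 and -0.36 in wild-type and -0.35, -0.10, 0.10 and 0.06 in SOD1G93A mice. The ranges of the 4 groups overlapped, and both 80-day groups were wider than both 40-day groups. The difference of SOD1G93A from wild-type was 0.02 at 40 days (95% confidence interval -0.15 to 0.20, exact permutation p = 0.771) and -0.01 at 80 days (-0.32 to 0.30, exact permutation p = 1). From 40 to 80 days the change was -0.01 in wild-type (-0.26 to 0.25) and -0.04 in SOD1G93A mice (-0.30 to 0.21). The spots of 1 array agreed to an SD of 0.043 to 0.092, whereas the 4 arrays of a group had SDs of 0.094 to 0.26. The spread between arrays was thus larger than that between spots, and it holds the mouse, the hybridization and the slide together.

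**Figure D1:**
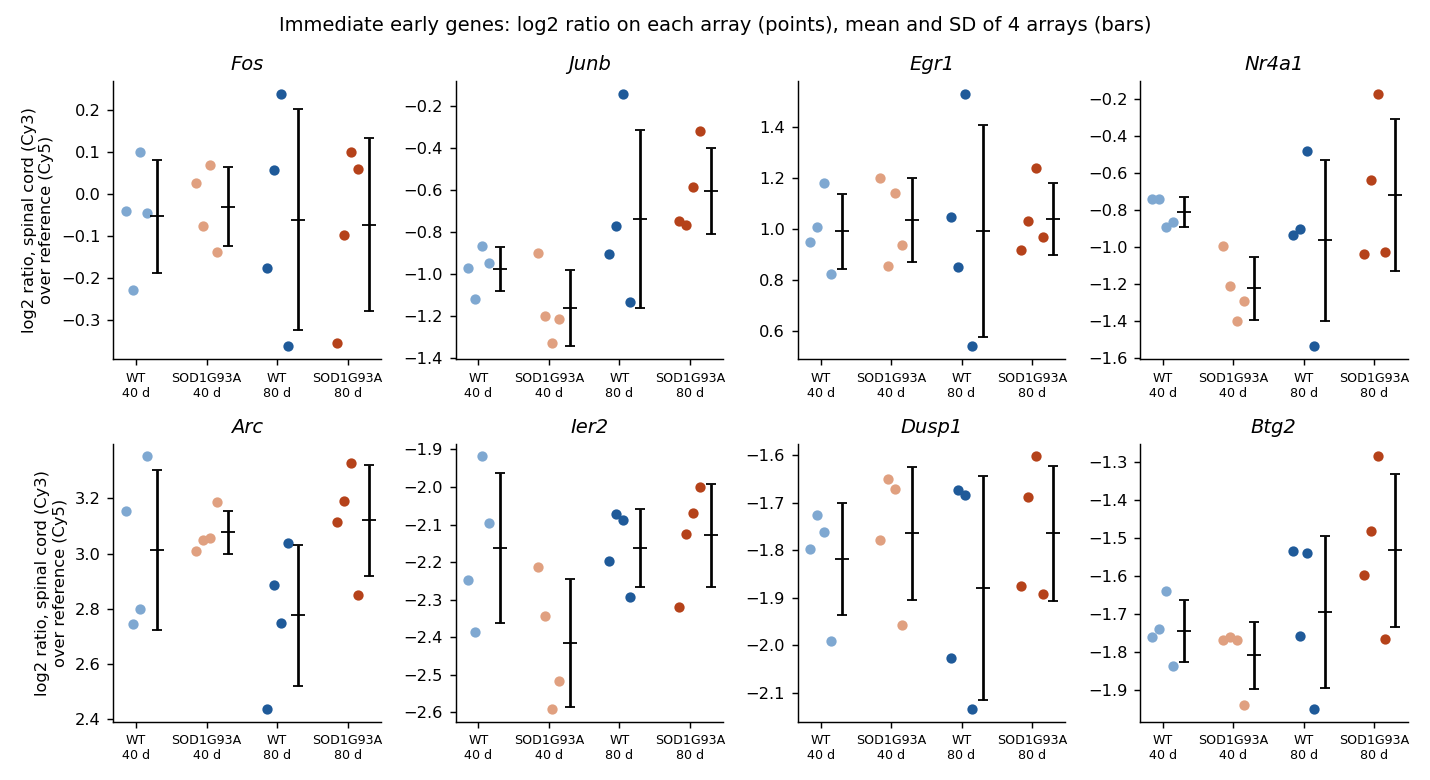
Log2 ratio of cord over reference (vertical axis) of the 8 tested immediate early genes on each of 16 arrays, by group, with points in replicate order and bars giving the mean and SD of 4 arrays. Nr4a1 in 40-day SOD1G93A mice lies below every 40-day wild-type value, and Junb in 80-day SOD1G93A mice lies above every 40-day SOD1G93A value.

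At 40 days, the question was whether the mutant transgene had moved these genes well before disease. Nr4a1 and Ier2 were lower in SOD1G93A mice and the other 6 tested members were not called, a call being a limma p below 0.05 without adjustment, the threshold of the study's methods. The share of all 21336 tested probes called by that rule was 4.47%. No member and no other probe passed after Benjamini-Hochberg adjustment (0% of probes by limma, against 953 probes at the unadjusted threshold). The median difference of the 8 members was -0.02, against 0.00 for all probes (0.0029).

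Nr4a1 encodes Nur77, an orphan nuclear receptor induced by membrane depolarization and by hormones. Its log2 ratios were -0.74, -0.74, -0.90 and -0.86 in wild-type and -1.0, -1.21, -1.40 and -1.29 in SOD1G93A mice of 40 days (probe at chr15:101260484-101260543, build mm7). Every SOD1G93A value lay below every wild-type value, and the same was true within each of the 4 slides. The difference was -0.42 with an SE of 0.086 (0.75-fold, 95% confidence interval -0.61 to -0.22, limma p = 0.000691, adjusted p = 0.998, exact permutation p = 0.0286, n = 4 and 4). That permutation p is the smallest that 4 against 4 arrays allow.

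Ier2, a nuclear protein of the early response, had log2 ratios of -2.25, -2.39, -1.92 and -2.10 in wild-type and -2.21, -2.34, -2.59 and -2.52 in SOD1G93A mice of 40 days. The groups overlapped, and SOD1G93A was lower on 2 of the 4 slides. The difference was -0.25 with an SE of 0.11 (limma p = 0.0468, adjusted p = 0.998), and the exact permutation p was 0.143. It was called under 9 of 21 other settings and left-out arrays, with differences from -0.40 to -0.14. Leaving out wild-type replicate 1, 3 or 4 or SOD1G93A replicate 2, 3 or 4 each ended the call (-0.28, -0.17, -0.23, -0.28, -0.19 and -0.22), as did a fit with the slide as a block (-0.25). Junb, the AP-1 subunit that often opposes Jun, differed by -0.19 at this age through its brightest probe (95% confidence interval -0.39 to 0.02, exact permutation p = 0.114) and by -0.16 through its second (exact permutation p = 0.143).

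Egr1, a zinc finger factor of synaptic plasticity, ranged from 0.82 to 1.18 in wild-type and from 0.85 to 1.20 in SOD1G93A mice of 40 days. Arc, which encodes a synaptic protein that controls AMPA receptor endocytosis, ranged from 2.74 to 3.35 and from 3.01 to 3.19. Dusp1, the phosphatase that switches off MAP kinases, ranged from -1.99 to -1.73 and from -1.96 to -1.65. Btg2, an antiproliferative protein, ranged from -1.84 to -1.64 and from -1.94 to -1.76. For each of these genes the ranges overlapped.

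The levels of cell type markers in the same comparison were as follows. The median difference was -0.69 over 5 meningeal fibroblast markers (Col1a1, Col1a2, Dcn, Lum and Col3a1), with 0 of 5 called, and their summed normalized cord signal ran from 897 to 4199 in wild-type and from 920 to 2688 in SOD1G93A mice. None of these 5 markers was at background on all arrays. Of 6 astrocyte markers, 3 were called higher in SOD1G93A mice, with summed signals of 4415 to 5397 in wild-type and 5322 to 6449 in SOD1G93A mice. The oligodendrocyte markers had a median of 0.16 (2 of 5 called higher), with summed signals of 71709 to 78146 and 73641 to 76670. For skeletal muscle the median was 0.81 (0 of 5 called, 445 to 789 in wild-type and 494 to 2715 in SOD1G93A mice). Of 4 sensory neuron markers listed, 2 were on the array and the 1 tested was called lower (-0.46). The medians of the neuronal, motor neuron, microglial, endothelial and blood markers lay between -0.05 and 0.10, with 0 called. The part of these cell types in the differences of Nr4a1 and Ier2 was not tested.

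At 80 days, Arc was higher in SOD1G93A mice and the other 7 members were not called, with 6.86% of all 21601 probes called. No probe passed after adjustment (0%, against 1481 at the unadjusted threshold by limma). The log2 ratios of Arc (probe at chr15:74749717-74749776, build mm7) were 2.44, 2.88, 2.75 and 3.04 in wild-type and 3.11, 3.19, 3.33 and 2.85 in SOD1G93A mice. The groups overlapped through SOD1G93A replicate 4. The difference was 0.34 with an SE of 0.13 (1.27-fold, 95% confidence interval 0.04 to 0.64, limma p = 0.0288, adjusted p = 0.708), and the exact permutation p was 0.0857. In wild-type replicate 1 the reference channel of this spot read 555.5, against 203 to 299 on the other 15 arrays. Neither the cord channel alone (0.19) nor the ratio without that array (0.23) gave a call. The call was also lost without wild-type replicate 3 (0.33) or SOD1G93A replicate 1, 2 or 3 (0.34, 0.32 and 0.27).

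Nr4a1 at 80 days spread widely within both groups. Its log2 ratios were -0.94, -0.90, -0.48 and -1.54 in wild-type and -1.04, -0.64, -0.17 and -1.03 in SOD1G93A mice. The groups overlapped, and the difference was 0.24 (95% confidence interval -0.28 to 0.77, exact permutation p = 0.486). With the slide as a block the same difference was called. Without wild-type replicate 4 the difference was 0.05 and without wild-type replicate 3 it was 0.41. The difference of Junb was 0.13 (-0.29 to 0.55, exact permutation p = 0.60). Of the markers, 1 of 5 neuronal and 1 of 6 astrocyte genes were called lower and 1 of 5 oligodendrocyte genes higher at 80 days, and their part in these values was not tested. Among the 7 members that were not called at 80 days, 6 had differences above 0 and 1, Fos, below it. Btg2 counts as above 0 through its brightest probe (0.16), whereas its second tested probe gave -0.08 (exact permutation p = 0.343). The median over the 8 members was 0.12, against 0.00 for all probes (-0.0012).

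**Figure D2:**
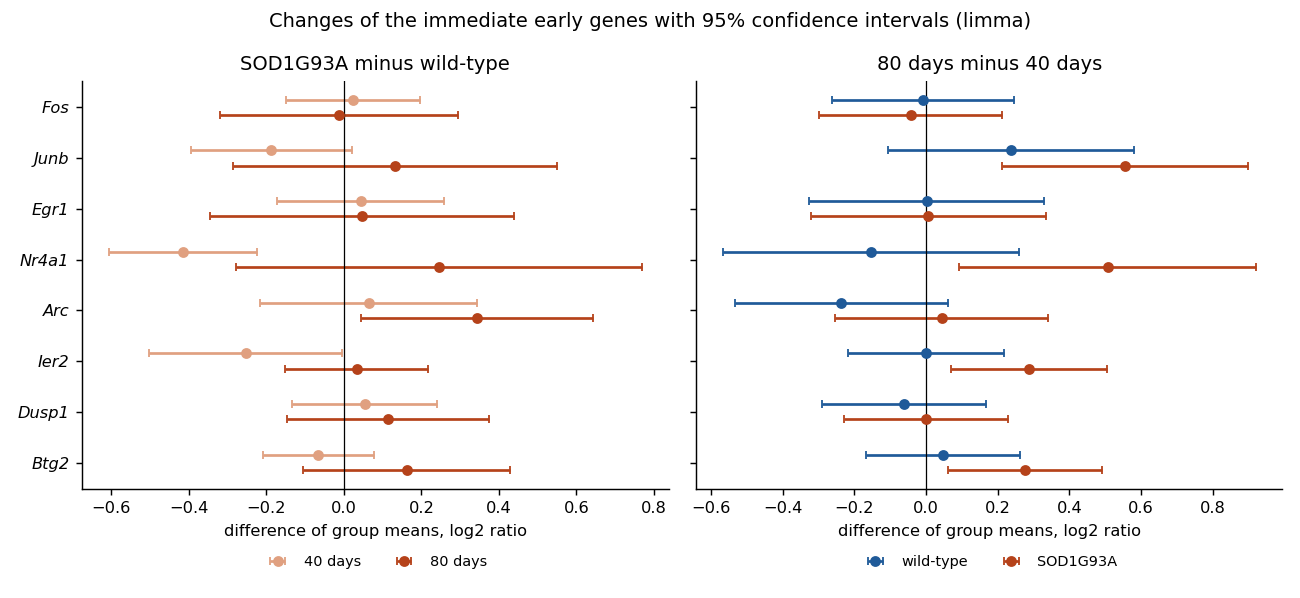
Differences of group means on the log2 ratio scale (horizontal axis) with 95% confidence intervals from limma for the 8 tested members, SOD1G93A minus wild-type at each age on the left and 80 minus 40 days in each genotype on the right. The interval of Nr4a1 at 40 days (-0.61 to -0.22) and those of Junb and Nr4a1 with age in SOD1G93A mice exclude 0, while Fos lies near 0 throughout.

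Whether the effect of genotype differed between the ages was tested with all 16 arrays in 1 fit. Nr4a1 was called: its difference at 80 days minus that at 40 days was 0.66 with an SE of 0.28 (95% confidence interval 0.08 to 1.24, limma p = 0.0291, adjusted p = 0.715), and the exact permutation of genotypes within ages gave p = 0.0518 over 4900 relabellings. The share of all 21951 probes called was 6.68%, and no probe passed after adjustment (0%, against 1466 at the unadjusted threshold by limma). The call was lost without SOD1G93A 40 days replicate 3 (0.60), wild-type 80 days replicate 4 (0.47) or SOD1G93A 80 days replicate 3 (0.48). For Junb the value was 0.32 (exact permutation p = 0.227) and for Fos -0.04 (p = 0.845). With the slide as a block Btg2 was called as well (0.23). The second tested probe of Btg2 gave -0.05 without the block (exact permutation p = 0.697), so its probes disagreed in sign. The marker medians here were 0.71 for the 5 meningeal genes (0 called), -0.37 for the 6 astrocyte genes (3 called lower), 0.43 for the sensory neuron gene and -0.32 for skeletal muscle (0 called in both), with 1 neuronal gene called lower and 1 motor neuron gene higher, and their part in the value of Nr4a1 was not tested.

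With age, Junb, Nr4a1, Ier2 and Btg2 rose in SOD1G93A mice and no member was called in wild-type mice. In SOD1G93A mice 4 of 8 members were higher at 80 than at 40 days and 0 lower, against 17.2% of all 21506 probes called, in 1887 cases higher and in 1813 lower. After adjustment 1.18% of probes passed and 0 members did. In wild-type mice 0 of 8 members were called, against 15.3% of 21524 probes (3289 by limma), and 1.63% of probes and 0 members passed after adjustment. The 2 age changes were not shown to differ for Junb, Ier2 or Btg2: that difference is the one given above for genotype between ages, and it was called for Nr4a1 alone.

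The log2 ratios of Junb (probe at chr8:83563097-83563156, build mm7) were -0.90, -1.20, -1.33 and -1.21 at 40 days and -0.75, -0.77, -0.59 and -0.32 at 80 days in SOD1G93A mice. Every 80-day value lay above every 40-day value. The change was 0.56 with an SE of 0.16 (1.47-fold, 95% confidence interval 0.21 to 0.90, limma p = 0.00335, adjusted p = 0.102), with an exact permutation p of 0.0286, the smallest possible. A second probe, which overlaps the first on the chromosome and is no independent measurement, gave 0.52 (adjusted p = 0.0892, exact permutation p = 0.0286) and likewise no overlap. In wild-type mice Junb read -0.97, -1.12, -0.87 and -0.95 at 40 days and -0.90, -0.77, -0.14 and -1.14 at 80 days. Those groups overlapped, and the change was 0.24 (-0.10 to 0.58, exact permutation p = 0.371).

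For Nr4a1, the 40-day and 80-day values of SOD1G93A mice listed above overlapped, and the change was 0.51 with an SE of 0.20 (limma p = 0.0195, adjusted p = 0.203, exact permutation p = 0.0857). Without SOD1G93A 80 days replicate 3 it was 0.32, and without SOD1G93A 40 days replicate 3 it was 0.45, neither of them called. In wild-type mice the change was -0.15 (exact permutation p = 0.60). Ier2 at 80 days read -2.32, -2.12, -2.07 and -2.00 in SOD1G93A mice, and its change was 0.29 (limma p = 0.0131, adjusted p = 0.177, exact permutation p = 0.0571), or 0.23, not called, without SOD1G93A 40 days replicate 3.

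Btg2 read -1.77, -1.76, -1.77 and -1.94 at 40 days and -1.60, -1.48, -1.29 and -1.77 at 80 days in SOD1G93A mice, higher at 80 days on 4 of 4 slides. The change was 0.28 (limma p = 0.0149, adjusted p = 0.185, exact permutation p = 0.0571), and it was not called without SOD1G93A 80 days replicate 3 (0.19) or SOD1G93A 40 days replicate 4 (0.23). The second tested probe of Btg2 gave 0.07 (exact permutation p = 0.60), so the probes of this gene disagreed. Wild-type mice read -1.76, -1.74, -1.64 and -1.84 at 40 days and -1.53, -1.76, -1.54 and -1.95 at 80 days, with overlapping ranges. Egr1, Arc and Dusp1 were not called with age in SOD1G93A mice (0.0058, 0.04 and 1.79e-05). In the same comparison the meningeal markers had a median change of 0.31 (1 of 5 called higher, summed signals of 920 to 2688 at 40 days and 1880 to 3395 at 80 days), the astrocyte markers -0.19 (1 of 6 called higher and 2 lower) and the oligodendrocyte markers -0.39 (3 of 5 called lower). The microglial markers had a median of 0.28 (1 of 6 called higher), and 1 motor neuron gene was called higher and 1 neuronal and 1 endothelial gene lower. With age in wild-type mice the oligodendrocyte median was -0.19 (2 of 5 called lower) and the microglial 0.18 (0 called), and 2 endothelial genes were called lower. The astrocyte median there was 0.18 (2 of 6 called higher) and the meningeal -0.39 (0 called). The part of these markers in the changes of the members was not tested.

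How much the arrays of 1 group differed from each other was described by the SD of the log2 ratio within groups, pooled over the 4 groups. It holds the mouse, the hybridization and the slide together. It was set beside all 21951 probes, whose median SD was 0.111. Nr4a1 had an SD of 0.314, larger than in 97.2% of probes. Junb had 0.258 (95%), Egr1 0.246 (94.2%), Arc 0.222 (92%) and Fos 0.187 (86.2%). Dusp1, Ier2 and Btg2 had 0.165, 0.157 and 0.154, so all 8 tested members lay above the median probe. In the cord channel alone the SD of Fos was 0.155, and in the reference channel alone it was 0.039, lower than in nearly every other probe (percentile 0.178). Each Fos value is a mean of 9 or 10 spots, whereas the probes of the other members had 1 spot per array. Averaging lowers the noise of spots, so the SDs and percentiles of Fos are not like for like with theirs. For Arc the reference channel had an SD of 0.332 (percentile 97), through the array named above.

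The spread was wider at 80 than at 40 days for 7 of the 8 members, as it was for 57.9% of all probes. The SD at 80 days was 3.18 times that at 40 days for Nr4a1, 2.37 times for Btg2, 2.24 times for Junb, 2.04 times for Fos and 1.99 times for Egr1. For Dusp1 and Arc it was 1.5 and 1.08 times, and for Ier2 0.65 times. Over all probes the median of this quotient was 1.10, and it was above 2 in 11.4% of them. The second tested probe of Btg2 gave 0.63 times.

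**Figure D3:**
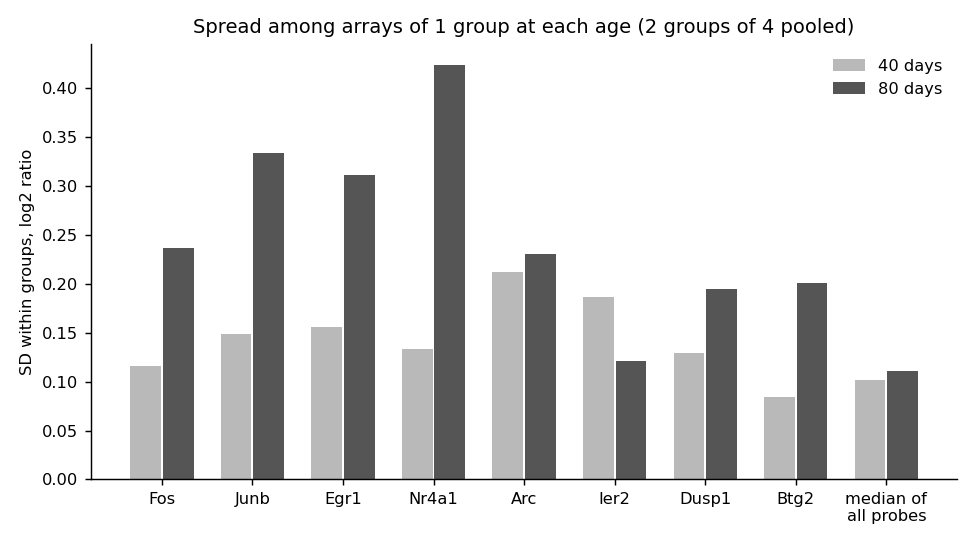
SD of the log2 ratio within groups (vertical axis) at 40 and at 80 days for the 8 tested members and the median over 21951 probes, each bar pooling 2 groups of 4 arrays. Nr4a1 has 0.133 at 40 days and 0.424 at 80 days, whereas the median probe has 0.101 and 0.111.

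Most members moved up or down together on the same arrays, Arc apart. In wild-type 80 days replicate 3, 7 of the 8 members lay above their group mean, with a median deviation of 0.25, and in replicate 4 of that group 1 of 8 did, with a median of -0.28. In SOD1G93A 80 days replicate 3, 8 of 8 lay above it (median 0.19), and in replicate 1 of that group 0 of 8 did (median -0.13). At 40 days the medians lay between -0.10 and 0.11. The slides shared part of this pattern: the median was above 0 for replicate 3 and below 0 for replicate 4 in all 4 groups. Fos lay above its group mean on slide 3 in all 4 groups, and Egr1, Dusp1 and Btg2 lay above it on slide 3 and below it on slide 4 in all 4. In the order named, these arrays had 53.4%, 53.7%, 53.7% and 54.9% of all probes well above background in the cord channel.

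**Figure D4:**
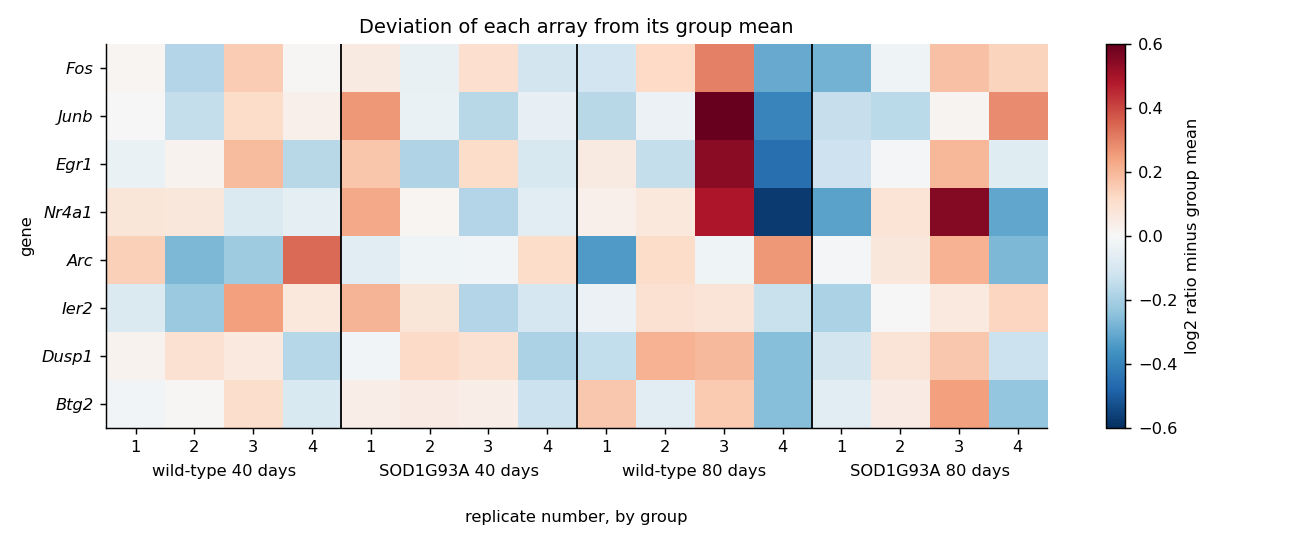
Deviation of each array (columns, by group and replicate) from its group mean on the log2 ratio scale (color) for the 8 tested members (rows). Wild-type 80 days replicates 3 and 4 and SOD1G93A 80 days replicates 1 and 3 hold runs of 1 color over most members.

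Across the 16 arrays, with group means removed, the log2 ratio of Junb correlated with that of Fos (Pearson r = 0.77, permutation p = 0.00667, Spearman rho = 0.73, p = 0.00692), as did Egr1 (r = 0.72, p = 0.0161, rho = 0.61, p = 0.038) and Ier2 (r = 0.67, p = 0.00291, rho = 0.69, p = 0.00588). These 3 of 7 relations had a Pearson p below 0.05. The permutations exchanged arrays within groups, and points of 1 array share its hybridization and normalization, and the 4 arrays of a slide share that slide, which these permutations do not take into account. With slide means removed as well, r was 0.80 for Junb, 0.59 for Egr1, 0.71 for Ier2, 0.57 for Nr4a1, 0.79 for Dusp1, 0.17 for Btg2 and -0.06 for Arc, given without a test. Of all 21764 probes, 6.8% had such a p with Fos, and 2.59% had one with a positive r. After adjustment over all probes none passed (0%), with adjusted p-values of 0.669, 0.692 and 0.669 for Junb, Egr1 and Ier2.

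Nr4a1 (r = 0.63, permutation p = 0.0682, rho = 0.42, p = 0.185), Dusp1 (r = 0.63, p = 0.0569, rho = 0.55, p = 0.0918) and Btg2 (r = 0.46, p = 0.197, rho = 0.42, p = 0.20) were positive without passing. Arc had r = -0.07 (permutation p = 0.844) and rho = -0.10 (p = 0.752). The adjusted p-values of these 4 lay between 0.747 and 0.98. Without the 2 arrays farthest from the median of Fos, wild-type 80 days replicate 4 and SOD1G93A 80 days replicate 1, r was 0.72 for Junb, 0.62 for Egr1, 0.56 for Ier2, 0.47 for Dusp1, 0.36 for Nr4a1, 0.23 for Btg2 and 0.16 for Arc. Within the 8 arrays of 80 days r was 0.84 for Junb, 0.76 for Egr1, 0.91 for Ier2 and 0.77 for Nr4a1, and within the 8 of 40 days 0.45, 0.57, 0.59 and -0.24. For Dusp1 it was 0.78 at 80 and 0.17 at 40 days, for Btg2 0.44 and 0.55, and for Arc -0.11 and 0.02.

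**Figure D5:**
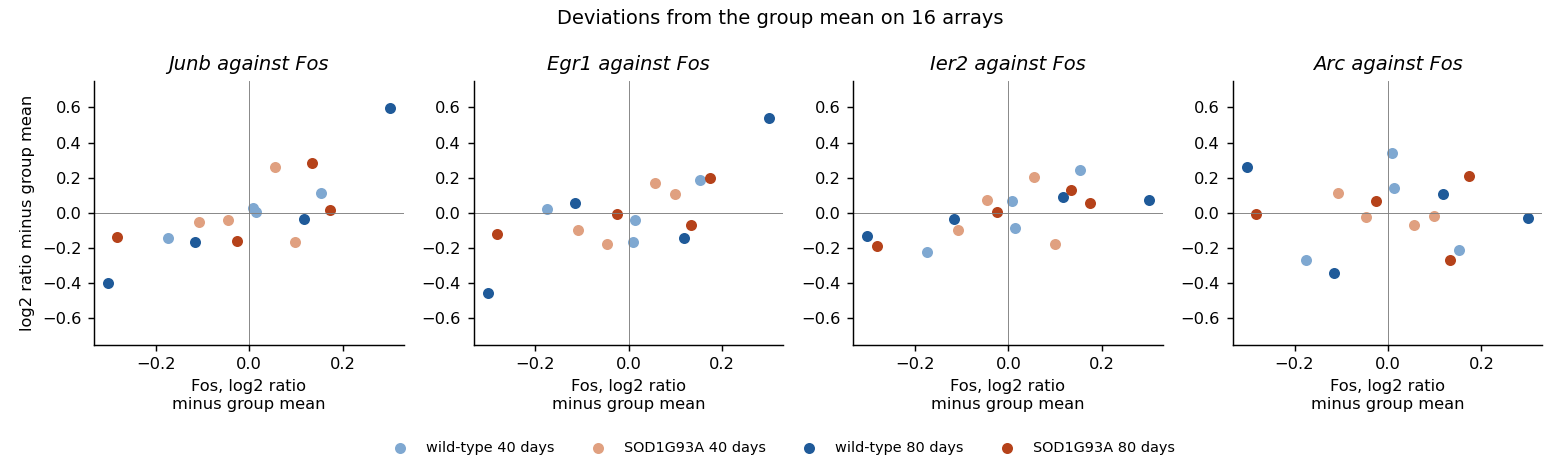
Deviation from the group mean (log2 ratio) of Junb, Egr1, Ier2 and Arc (vertical axes) against that of Fos (horizontal axis) on 16 arrays, colored by group. Junb and Egr1 rise with Fos (r = 0.77 and 0.72), with 1 wild-type 80-day array at each end, and Arc does not (r = -0.07).

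Ranked by r with Fos among 21764 probes, the probes of Junb stood at places 32 and 34, Egr1 at 76, Ier2 at 191, Nr4a1 at 302, Dusp1 at 316, those of Btg2 at 1082 and 1430, and Arc at 11876. The genes closest to Fos over the 16 arrays were Pisd (r = 0.85), Cep110, Mcm10, Plcd1, 4933439C20Rik, Ctdsp2, Hcls1, 1300007F04Rik, A2m and Itpkc (r = 0.81), of which none is a member. Among all 28 pairs of the 8 members, 22 had a positive r and 14 an r above 0.5. The median was 0.51 and the highest 0.80, between Nr4a1 and Btg2. The lowest was -0.36, between Egr1 and Arc, and 6 of the 7 pairs with Arc were below 0.

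Other immediate early and rapid response genes were counted as 44 of 50 listed genes on the array, 41 of them tested. At 40 days 1 was called higher in SOD1G93A mice, Klf2 (0.16, adjusted p = 0.998), a factor of endothelial cells and lymphocytes, and at 80 days 0 were called. For the difference between the ages Klf2 alone was called (-0.44, adjusted p = 0.725). From 40 to 80 days 3 were higher and 1 lower in wild-type mice, and 4 higher and 1 lower in SOD1G93A mice. The shares of all probes called were 4.47% at 40 days, 6.86% at 80 days and 6.68% for the difference between the ages. With age they were 15.3% in wild-type and 17.2% in SOD1G93A mice. Gadd45b, a stress-inducible gene, rose in both (0.33, adjusted p = 0.0435 in wild-type, and 0.30, adjusted p = 0.0686 in SOD1G93A mice). In SOD1G93A mice the others called higher were Per1 (0.48), a clock gene also induced by stimuli, Cyr61 (0.31), a matrix-associated protein, and Cebpd (0.89), an inflammatory transcription factor, and Klf2 was lower (-0.35). In wild-type mice Nptx2 (0.19) and Rgs2 (0.13) were called higher and Plk3 lower (-0.34). The median change of the 41 genes was 0.07 with age in SOD1G93A mice and 0.04 in wild-type mice, against 0.01 for all probes in both.

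Of 25 kinases and factors upstream of these genes, 24 were on the array and 21 tested. By genotype 0 were called at 40 days and 1 at 80 days, Camk4, a calcium-dependent kinase that phosphorylates CREB (-0.19, adjusted p = 0.72), which was also called for the difference between the ages (-0.30, adjusted p = 0.59). With age, 3 were called higher and 1 lower in wild-type mice, and 3 higher and 2 lower in SOD1G93A mice. Higher in wild-type mice were Mef2c (0.27), Camk4 (0.18) and Mef2d (0.13). Higher in SOD1G93A mice were Map2k1 (0.23), Rps6ka1 (0.17) and Mkl1 (0.15). Crebbp, the coactivator of CREB, was lower in both genotypes (-0.18 in each). Creb1 itself was lower in SOD1G93A mice (-0.24, adjusted p = 0.268). None of the 21 passed after adjustment in any of the 5 comparisons. Of 6 glucocorticoid response genes on the array, 2 were called lower in SOD1G93A mice at 40 days, Cdkn1a (-0.18) and Sult1a1 (-0.66). At 80 days 0 were called. With age 1 was called lower in wild-type mice, Tsc22d3 (-0.21, adjusted p = 0.324). For both lists the shares of all probes called were 4.47% at 40 days, 6.86% at 80 days and 6.68% between the ages. With age they were 15.3% in wild-type and 17.2% in SOD1G93A mice.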

How the data were processed

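Per the labels, total RNA of lumbar cord was amplified, labeled and hybridized, and arrays were read with Agilent Feature Extraction 9.5.3.1. The authors deposited the unnormalized intensity of every spot in both channels, used here, and a table of log2 values normalized separately for each age, used as an alternative. Here median signals were taken. Where a spot lay over 20 units below its local background, the background was reset to the median of its array. Normexp (offset 50), loess within arrays and quantile normalization of average intensity between arrays (Aquantile) followed, with control and outlier-marked spots left out. The offset compresses differences of dim probes. Spots of a probe were averaged, and the probe brightest in Cy3 stood for its gene. Groups were compared with limma 3.58.1 (lmFit, eBayes) in R 4.3.3 over all tested probes, by age for genotype and over 16 arrays otherwise. Adjusted p-values are Benjamini-Hochberg over all probes. The permutation tests are two-sided, the correlations with 100000 relabellings. An adjustment over the 7 correlations alone, first planned, was replaced by one over all probes. Scripts were tested on simulated data. Samples are labeled biological replicates, and their number limits precision. The members and lists were chosen with earlier results of these data known. All members are named with every probe, other listed genes only where called. One further marker list is not reported here.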

Additional observations from a re-analysis of the deposited data

Results flagged for a closer look

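The difference between genotypes of Nr4a1 was 0.66 higher at 80 than at 40 days on the log2 scale (-0.42 at 40 days and 0.24 at 80 days), which differed between the ages by limma's test of the difference (p = 0.0291, adjusted p = 0.715, exact permutation p = 0.0518). Btg2 in SOD1G93A 40 days replicate 4 read -1.94, apart from the other 3 arrays of its group, which read between -1.77 and -1.76, and the gap was 0.95 of the range of the group. It was the only set flagged by Dixon's test for an outlying array among 56 sets of 4 arrays. That test flags about 1 in 20 sets by chance alone, so 1 flag is not more than chance gives.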

How the results depend on the processing

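Nr4a1 at 40 days and Junb with age in SOD1G93A mice were called under all 21 and all 19 other settings and left-out arrays tried (differences of -0.51 to -0.36 and of 0.44 to 0.64). The other 6 called changes kept their direction and lost the call under some: called under 25 of 28 for Nr4a1 between the ages, 17 of 19 for Nr4a1, 15 of 19 for Ier2 and 16 of 19 for Btg2 with age in SOD1G93A mice, 9 of 21 for Ier2 at 40 days and 11 of 21 for Arc at 80 days. Members called at 40 days fell from 2 to 1, Nr4a1, without the background reset, with a normexp offset of 16, with Cy3 alone, with the deposited log2 table, and without the 3 arrays with bright local backgrounds, an alternative chosen after the data were seen. Without loess they rose to 3, with Junb (-0.31). Members called at 80 days fell from 1 to 0 without the reset, with offset 16, with Cy3 alone, with the processed signals and with the deposited table. For the difference between the ages they rose from 1 to 5 without loess (adding Arc, Btg2, Ier2 and Junb) and to 2 with processed signals or without the 3 arrays. With age they rose from 0 to 1 in wild-type mice without loess, without the filter on dim probes (Fosb, 0.16) and without the 3 arrays, and fell from 4 to 2 in SOD1G93A mice without the reset. Leaving out 1 array gave 1 to 3 at 40 days, 0 to 1 at 80 days, 0 to 2 between the ages, 0 to 2 with age in wild-type and 2 to 4 in SOD1G93A mice. The 2 in wild-type mice, without wild-type 80 days replicate 4, were Junb (0.37) and Arc (-0.32).

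Fos, called under none of these, changed sign without loess (-0.13 at 40 days, 0.064 at 80 days, 0.19 between the ages and 0.031 with age in SOD1G93A mice). At 80 days it was 0.0052 with Cy3 alone, 0.0058 with processed signals and 0.022 with the deposited table, and with age in wild-type mice 0.012 without the reset, 0.0070 with offset 16, 0.052 with Cy3 alone, 0.045 with processed signals and 0.043 without the 3 arrays. With 1 array left out it ran from -0.035 to 0.074 at 40 days, -0.11 to 0.088 at 80 days, -0.14 to 0.065 between the ages, -0.11 to 0.093 with age in wild-type and -0.10 to 0.051 in SOD1G93A mice. So left out, Junb at 80 days ran from -0.00091 to 0.33, and Nr4a1 with age in wild-type from -0.32 to 0.037. The correlations with Fos below p = 0.05 rose from 3 to 6 without loess, and r of Arc became 0.070 with Cy3 alone, 0.10 with the deposited table and 0.18 without loess. The 21 differences of other members that were not called were recomputed 460 times, of which 72 changed sign and none of these was called. The deposited table gave no age comparison, since it was normalized by age. The median SD of the members was 0.204, and 0.177 to 0.228 under other settings.

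Arrays of 1 number shared a slide. Over all probes their deviations from the group means correlated at -0.14 to 0.23 (24 pairs, median 0.0027, 7 of them over 0.1), and 7 of 16 arrays were closest to their own slide, whereas several members did shift together by slide. With the replicate block, 1 member was called at 40 days (Nr4a1), 2 at 80 days (Arc and Nr4a1), 2 between the ages (Btg2 and Nr4a1), 0 with age in wild-type and 4 in SOD1G93A mice. The cause of these shifts was not tested. Fosb and Npas4 lie too near background for any statement about change.

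The share of all probes called moved by over 1.5 times at 40 days, from 4.47% to 1.16% without the reset, 2.51% with Cy3 alone, 2.52% with the deposited table, 7.57% with processed signals and 8.87% without wild-type replicate 4. At 80 days it moved from 6.86% to 4.51% without SOD1G93A replicate 3. Between the ages it moved from 6.68% to 3.63% without the reset, 4.45% with Cy3 alone and 19.6% without loess, and with age in SOD1G93A mice from 17.2% to 11.2% without the filter.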
